A study of Mus musculus with 15 samples.

Results

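The core of the NFκB pathway was taken as 10 genes, namely Nfkb1, Nfkb2, Rela and Relb for the transcription factor subunits, Nfkbia for the inhibitor, Chuk, Ikbkb and Ikbkg for the IκB kinase, and Tab2 and Ube2n for the step above that kinase. They were found on the array through the accession of each probe, which gave 14 probes among 55681 and made the members 10 of 21154 genes that could be named. Nfkb1, Relb, Ikbkg and Ube2n had 2 probes each and the other 6 genes had 1. All mice were male C57BL/6J, labelled as 9 weeks old, and each gave 1 array. In the study that is about the age when surgery was done, and the femurs were taken about 4 weeks after it. The mice formed 4 groups. G-Sham, FLT-Sham and G-Surgery held 4 mice each, whereas only 3 were in FLT-Surgery. FLT mice were housed in a flight habitat on the International Space Station and G mice in the same kind of hardware on the ground, at a different time. Surgery mice had a segmental bone defect of 2 mm cut in the right femur and filled with a polymer and tricalcium phosphate graft, with a pin and a collagen sponge soaked in saline, while Sham mice were not operated. The tissue was the midshaft of the femur without its ends, labelled callus in every group although no callus forms in a bone without a defect. The carcasses had been frozen whole and partly thawed for dissection, and the study describes the RNA as of low quality.

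NFκB is a family of dimeric transcription factors that switches on genes of inflammation, cell survival and, in bone, osteoclast formation. In resting cells the dimers are held in the cytoplasm by IκB proteins, of which Nfkbia encodes IκBα. Signals from cytokine and Toll-like receptors build ubiquitin chains, which are made with the conjugating enzyme encoded by Ube2n and bound by the adaptor TAB2, and the kinases that gather there activate the IκB kinase complex. That complex holds the catalytic subunits encoded by Chuk (IKKα) and Ikbkb (IKKβ) and the scaffold encoded by Ikbkg (NEMO), and it marks IκBα for destruction, which frees the dimers. A second, noncanonical branch runs through IKKα alone and converts the product of Nfkb2 into a partner of RELB.

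The question for these genes was whether their transcripts differed between flight and ground femurs, with and without a bone defect. Each array measured the sample in Cy5 against a commercial reference RNA from 11 mouse cell lines in Cy3, and no dyes were swapped. All values are log2 ratios of Cy5 to Cy3, so that a value of 0 means as much signal as the reference gave for the same probe, and levels of different probes are not comparable. Between 22.4% and 38.5% of probes per array were well above background in Cy5. The count of such probes ranged from 12869 to 18300 in G-Sham, 14813 to 21461 in FLT-Sham, 14309 to 20697 in G-Surgery and 12493 to 14260 in FLT-Surgery. Arrays of a group correlated between 0.841 and 0.983 over probes, with the lowest value in FLT-Sham. Nothing in a bulk sample separates fewer cells of a type from less RNA per cell. Of 11 osteoblast and osteocyte markers, Col1a1 and Col1a2, the chains of type I collagen, were above background on all 15 arrays, Ibsp on 14, Mepe on 11, Bglap on 8, Alpl on 7 and Runx2 on 6. The other 4, Sp7, Sost, Dmp1 and Phex, were above it on 0 of the 15.

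Nfkbia and Nfkb2 are themselves known NFκB target genes, so the letters of their promoters are shown here. The sequences below are from RefSeq on build GRCm38.p6 and end 1 base before an annotated start. For Nfkb2 that start lies inside the annotated gene, not at its first base. Capitals mark each match to the κB consensus motif, searched on both strands. The Nfkbia window (chr12:55492648-55492897, minus strand) held 1 match, starting 29 bases before the gene start. The Nfkb2 window (chr19:46304487-46304736, plus strand, 1 of 3 annotated starts) held matches starting 39, 38 and 11 bases before the start, the first and second overlapping.
Nfkbia promoter: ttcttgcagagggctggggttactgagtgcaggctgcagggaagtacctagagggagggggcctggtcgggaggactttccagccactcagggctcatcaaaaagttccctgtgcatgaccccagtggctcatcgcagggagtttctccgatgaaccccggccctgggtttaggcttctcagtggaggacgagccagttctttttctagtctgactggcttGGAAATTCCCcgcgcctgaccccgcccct
Nfkb2 promoter: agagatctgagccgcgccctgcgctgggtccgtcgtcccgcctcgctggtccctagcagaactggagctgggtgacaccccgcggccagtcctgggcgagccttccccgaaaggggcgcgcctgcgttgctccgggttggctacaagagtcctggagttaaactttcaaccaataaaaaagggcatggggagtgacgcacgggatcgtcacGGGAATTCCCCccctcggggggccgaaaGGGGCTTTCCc
Of 32851 promoter windows of 250 bases, 7.25% held at least 1 match. Among the members, 7 were in the promoter table with 13 windows, and 4 windows held a match, all of them in Nfkb2 and Nfkbia. The windows of Rela, Chuk, Ikbkg, Tab2 and Ube2n held none, and Nfkb1, Relb and Ikbkb were not in the table. A match describes the letters of the window only.

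Many members were near background on these arrays. Of the 210 values that the 14 probes gave on 15 arrays, 100 were well above background in Cy5, while all 210 were above it in the reference channel. Rela and Nfkbia were above background on all 15 arrays. Nfkb2 missed 1 array, G-Sham 1, and Chuk missed 2, FLT-Surgery 3 and 5. At the other end, both Ikbkg probes were at background on every array, and Nfkb1 rose above it with its brighter probe on FLT-Sham 9 only. Of the 10 genes, the number above background with the brightest probe was 4, 5, 7 and 5 on the G-Sham arrays and 8, 7, 7 and 6 on the G-Surgery arrays. It was 8, 8 and 8 on FLT-Sham 4, 6 and 9 but 4 on FLT-Sham 8, and 5, 4 and 4 on the FLT-Surgery arrays.

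**Figure D1:**
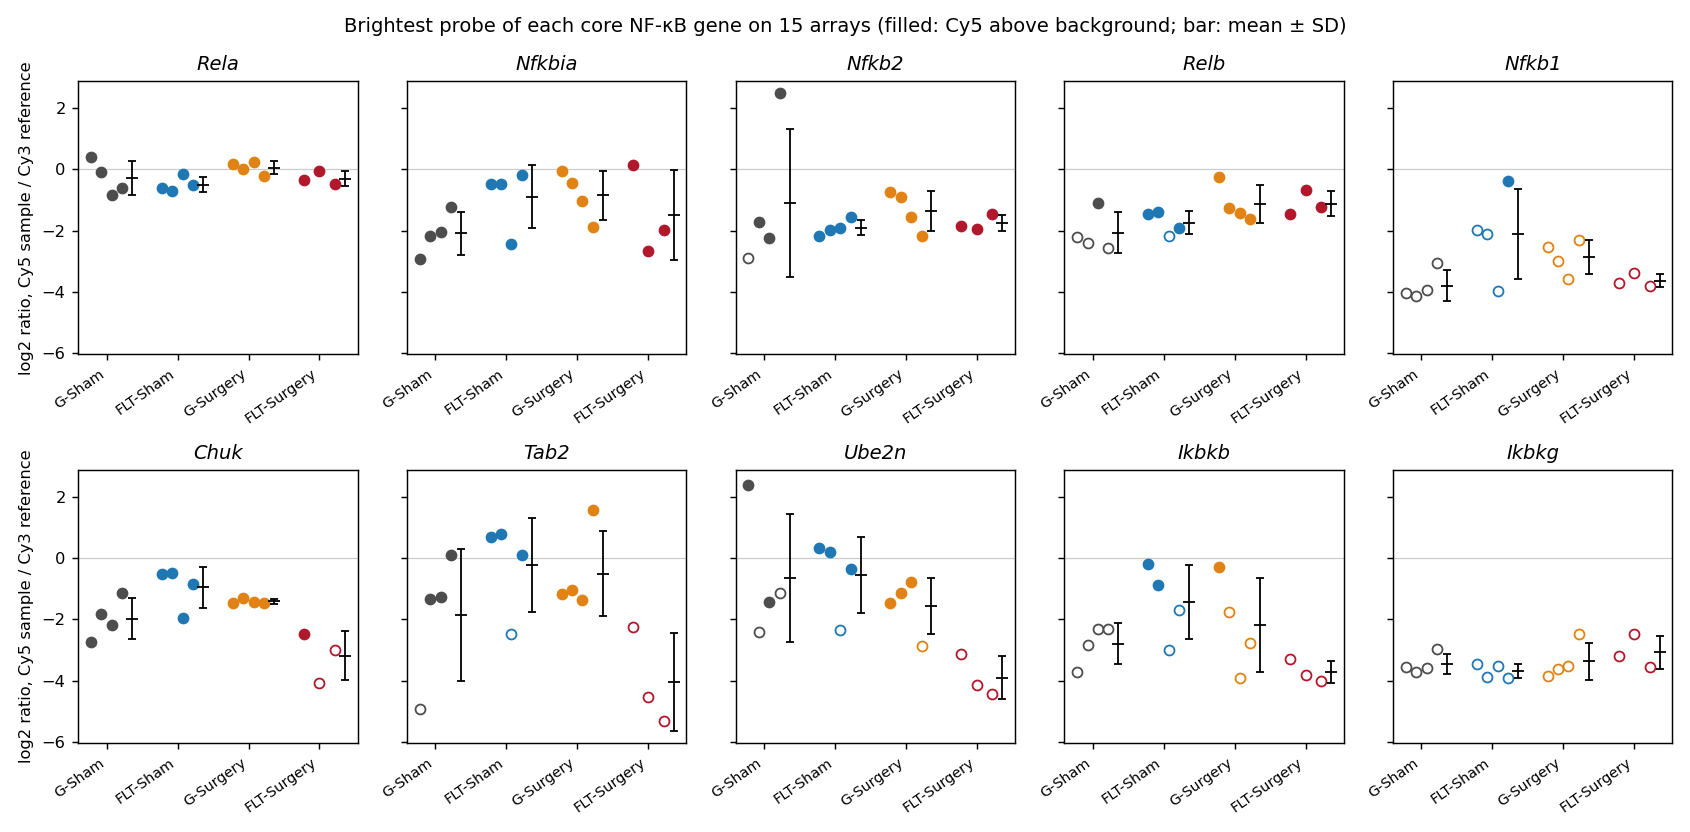
Log2 ratio of Cy5 sample to Cy3 reference (y axis) of the brightest probe of each of the 10 genes on the 15 arrays, by group (x axis). Filled points are above background in Cy5, open points are not, and the bar beside each group is its mean ± SD (n = 4, or 3 for FLT-Surgery). Rela is filled and narrow throughout, while the FLT-Surgery points of Tab2 and Ube2n are open and low.

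Rela encodes p65, the subunit that carries the activation domain of the classical dimer. Its log2 ratio was 0.41, -0.09, -0.85 and -0.60 in G-Sham 1, 3, 4 and 5. In FLT-Sham 4, 6, 8 and 9 it was -0.61, -0.70, -0.16 and -0.51. G-Surgery 1, 3, 4 and 5 gave 0.19, 0.01, 0.25 and -0.20, and FLT-Surgery 1, 3 and 5 gave -0.36, -0.04 and -0.49. The groups overlapped, with means of -0.28 ± 0.56, -0.50 ± 0.24, 0.06 ± 0.20 and -0.30 ± 0.23 (SD, n = 4, 4, 4 and 3). In FLT-Surgery against G-Surgery its difference of -0.36 (SE 0.26) had a 95% confidence interval from -0.96 to 0.25 in limma. That interval leaves out a 2-fold change in either direction. In FLT-Sham against G-Sham the difference was -0.21 (SE 0.36), with an interval from -1.04 to 0.61 that just reaches a 2-fold fall.

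Nfkb2 encodes p100, the precursor of the noncanonical subunit p52. Its log2 ratio lay between -2.16 and -1.55 in FLT-Sham, between -2.18 and -0.75 in G-Surgery and between -1.93 and -1.45 in FLT-Surgery. G-Sham held -1.72 and -2.25 in mice 3 and 4 and -2.88, not above background, in mouse 1, but 2.48 in mouse 5. That 1 array set the G-Sham mean of -1.09 ± 2.43 (SD, n = 4), and without it the G-Sham mice lay in or just below the range of the other groups. In FLT-Sham against G-Sham the difference of -0.81 (SE 1.05) became 0.38 without G-Sham 5. In FLT-Surgery against G-Surgery it was -0.40 (SE 0.40, adjusted p = 0.614 in limma), and the arrays overlapped.

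Relb encodes the partner of p52, and its probes did not tell the same story. The brighter probe, A_55_P2168736, was above background on 1 of 4 G-Sham, 3 of 4 FLT-Sham, 4 of 4 G-Surgery and 3 of 3 FLT-Surgery arrays, with group means of -2.06 ± 0.67, -1.73 ± 0.37, -1.14 ± 0.62 and -1.12 ± 0.40 (SD, n = 4, 4, 4 and 3). Between FLT-Surgery and G-Surgery it differed by 0.02 (SE 0.40, 95% confidence interval -0.92 to 0.96). The other probe, A_51_P389751, gave -1.60, -5.17 and -5.46 in FLT-Surgery 1, 3 and 5 against -1.99, -1.08, -3.61 and -2.01 in G-Surgery 1, 3, 4 and 5, a difference of -1.90 (SE 1.01, adjusted p = 0.36 in limma). On that probe FLT-Surgery 3 and 5 were at background, where the brighter probe detected the gene. Nfkb1, which encodes p105, the precursor of p50, gave no test, since its brighter probe reached background on 1 array of 15 and the other on none.

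**Figure D2:**
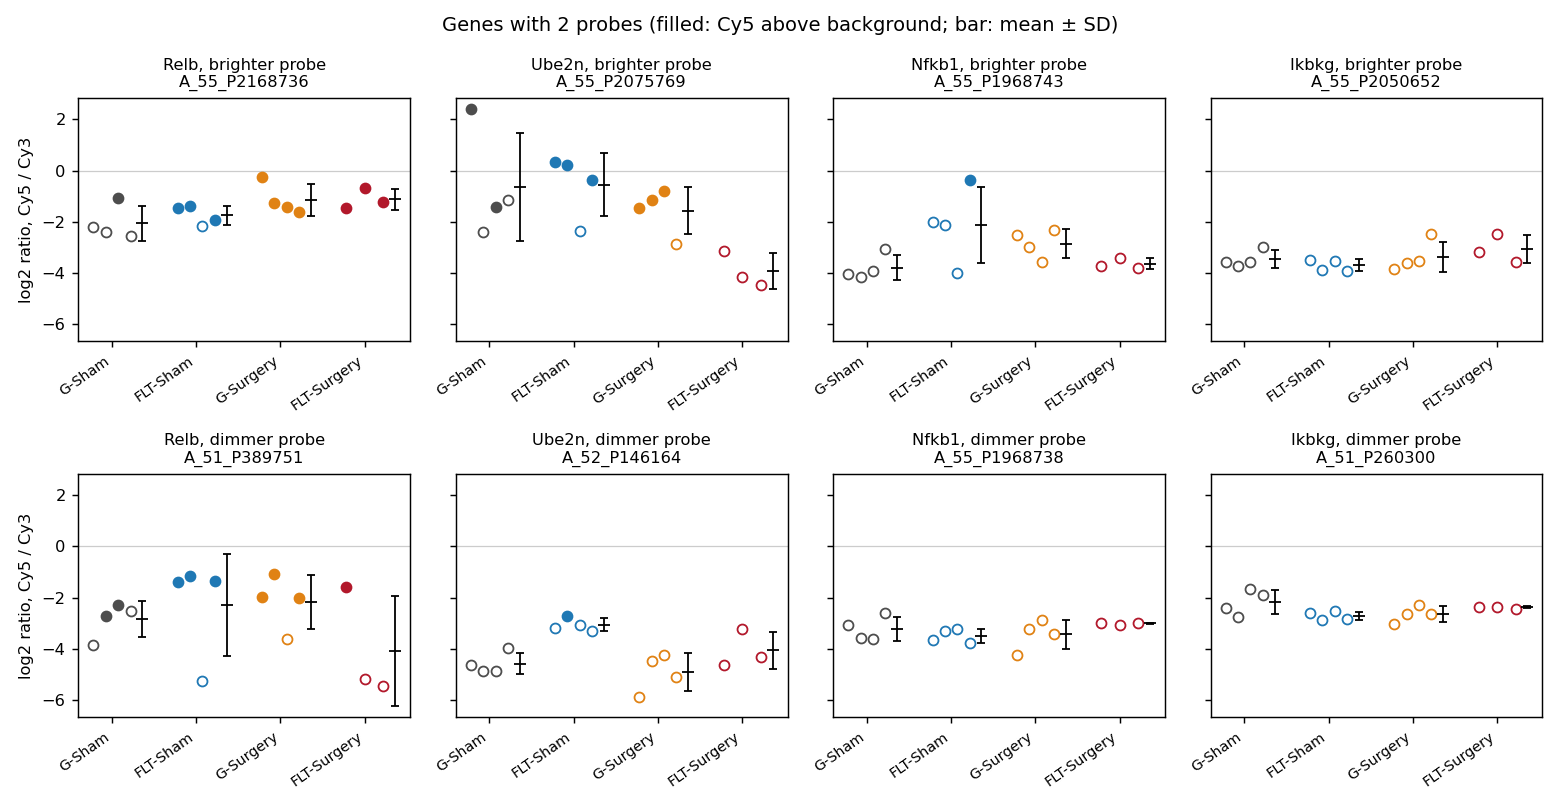
Log2 ratio of Cy5 to Cy3 (y axis) for the 4 genes with 2 probes, Relb, Ube2n, Nfkb1 and Ikbkg, with the brighter probe above and the dimmer below, by group (x axis). Filled points are above background, open points are not, and bars are mean ± SD. The Relb probes part in FLT-Surgery, the dimmer Ube2n probe is filled on 1 array only, and both Ikbkg probes are open throughout.

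Nfkbia, the inhibitor and classical feedback target, was detected on every array and varied widely within groups. Its log2 ratio was -2.92, -2.18, -2.03 and -1.21 in G-Sham 1, 3, 4 and 5. FLT-Sham 4, 6 and 9 gave -0.49, -0.46 and -0.17, but FLT-Sham 8 gave -2.42. G-Surgery 1, 3, 4 and 5 gave -0.06, -0.43, -1.03 and -1.88, and FLT-Surgery 1, 3 and 5 gave 0.16, -2.67 and -1.96. The 3 higher FLT-Sham mice lay above every G-Sham mouse, whereas FLT-Sham 8 lay within that group, and within FLT-Surgery mouse 1 was the highest of all 15 arrays and mouse 3 among the lowest. In G-Surgery against G-Sham the difference was 1.24 (SE 0.49, adjusted p = 0.416 in limma), and in FLT-Sham against G-Sham 1.20 (SE 0.58, adjusted p = 0.522 in limma). Neither passed the cut-off given next. Without FLT-Sham 8 the second became 1.71 (SE 0.42, adjusted p = 0.0719), and without G-Surgery 5 the first became 1.58 (SE 0.45, adjusted p = 0.233), both past the cut-off. Each of these arrays was the lowest of the higher group, so leaving it out had to widen the difference. Between FLT-Surgery and G-Surgery the difference was -0.64 (SE 0.73), with an interval from -2.33 to 1.05 that includes changes of over 2-fold in either direction. FLT-Sham 8 had the lowest summed signal of its group for 8 of 11 marker lists, those of osteoblasts and osteocytes, osteoclasts, chondrocytes, skeletal muscle, erythroid cells, neutrophils, macrophages and adipocytes. It had the highest for the B cell and endothelial lists and lay between the others for the T cell list, and the part of these in the Nfkbia values was not tested.

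The cut-off was the one set in the study, a change of 2-fold or more together with an unadjusted p no higher than 0.01, in limma on the arrays of the groups compared. Probes had to be above background on 3 or more of those arrays. Under this rule 7 members could be tested in each comparison between groups, and Nfkb1, Ikbkb and Ikbkg could not. Between FLT-Surgery and G-Surgery, Chuk, Tab2 and Ube2n were lower in flight past the cut-off and the other 4 were not called. That makes 3 of 7 members, beside 3.27% of all 8481 genes tested and 2.63% called lower. The study had picked these 3 genes as DEGs from the same arrays, so the count is no independent evidence of their direction. The arrays of these 3 genes did not overlap between the groups, as was the case for 15.2% of all genes tested. Tab2 and Ube2n entered the test through G-Surgery arrays alone, since no FLT-Surgery array was above background for either. No gene of the 8481 reached an adjusted p of 0.05, the lowest being 0.0625, although the unadjusted p was 0.05 or less for 2707 probes. The median over the members tested was -0.64, beside -0.35 over all genes, of which 70% were below 0.

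Chuk encodes IKKα, the kinase subunit that the noncanonical branch depends on. Its log2 ratio was -1.47, -1.31, -1.42 and -1.45 in G-Surgery 1, 3, 4 and 5, with a smaller spread (SD 0.07) than any other member above background on every array of a group. FLT-Surgery 1, 3 and 5 gave -2.48, -4.06 and -3.01, of which only mouse 1 was above background. G-Sham 1, 3, 4 and 5 gave -2.73, -1.83, -2.19 and -1.13, and FLT-Sham 4, 6, 8 and 9 gave -0.53, -0.49, -1.94 and -0.85. The lowest FLT-Surgery mice thus lay under every other mouse, while the ground surgery mice lay among the G-Sham mice. The difference between FLT-Surgery and G-Surgery was -1.77 (SE 0.39, 95% confidence interval -2.68 to -0.87, adjusted p = 0.248 in limma), or -1.42 relative to the median of all genes. It kept its side of the cut-off when any 1 array was left out, with values from -2.13 to -1.34. The call was lost with the replicate number as a block (-1.78) and after normexp correction of background with loess (-0.07). As FLT-Surgery 3 and 5 were not above background, the size of the difference is not exact. Within slide 1 (2 against 3 arrays) the difference was -2.09 and within slide 2 (1 against 1) it was -1.17.

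Tab2 encodes an adaptor that reads ubiquitin chains for the kinase TAK1. G-Surgery 1, 3, 4 and 5 gave log2 ratios of -1.18, -1.05, -1.35 and 1.57, all above background. FLT-Surgery 1, 3 and 5 gave -2.24, -4.53 and -5.32, none of them above it. G-Sham 1, 3, 4 and 5 gave -4.93, not above background, -1.33, -1.26 and 0.10, and FLT-Sham 4, 6, 8 and 9 gave 0.68, 0.79, -2.49, not above background, and 0.10. G-Surgery 5 stood apart from the rest of its group, and 1 mouse each of G-Sham and FLT-Sham was as low as the FLT-Surgery mice. The difference between FLT-Surgery and G-Surgery was -3.52 (SE 0.94, 95% confidence interval -5.71 to -1.34, adjusted p = 0.28 in limma). As FLT-Surgery gave only a bound, Tab2 was at least 6.34-fold higher in G-Surgery (measured means 9.89 and 6.84 in normalized log2 Cy5), and at least 4.05-fold without G-Surgery 5. These bounds rest on the deposited processing. The log2 difference was -2.40 after a further loess within each array, and -0.16 after normexp correction of background with loess. The call was lost without G-Surgery 3, FLT-Surgery 3 or FLT-Surgery 5, and with no filter on dim probes (adjusted p = 0.481 in limma). Within slide 1 the difference was -4.60 and within slide 2 it was -1.19.

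Ube2n encodes UBC13, which builds the chains that TAB2 reads. With its brighter probe, A_55_P2075769, G-Surgery 1, 3, 4 and 5 gave log2 ratios of -1.47, -1.13, -0.79 and -2.88, the last not above background. FLT-Surgery 1, 3 and 5 gave -3.12, -4.15 and -4.45, none above it. G-Sham ranged from -2.41 to 2.40, with mouse 1 the highest of all arrays, and FLT-Sham from -2.35 to 0.34, with mouse 8 the lowest and at background. The surgery groups parted by a narrow gap, between -2.88 and -3.12. The difference was -2.34 (SE 0.56, 95% confidence interval -3.65 to -1.03, adjusted p = 0.26 in limma), and the level was at least 2.84-fold higher in G-Surgery, of which 3 of 4 arrays were above background (measured means 8.36 and 6.44). G-Surgery 5, not above background, enters the first of these means, so the bound is not strict, and it rests on the deposited processing. The call was lost without FLT-Surgery 3 or 5 and with all 15 arrays in one fit (adjusted p = 0.321 in limma), and without G-Surgery 1, 3 or 4 the probe fell under the filter. Within slides it was -2.59 and -1.98. The other probe, A_52_P146164, was at background on every array but FLT-Sham 6 and could not be tested.

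Ikbkb, the catalytic subunit of the canonical branch, was above background on FLT-Sham 4 and 6 and G-Surgery 1 only, at -0.18, -0.87 and -0.28. Group means were -2.79 in G-Sham, -1.44 in FLT-Sham, -2.18 in G-Surgery and -3.71 in FLT-Surgery. No group had more than 2 arrays above background, so no fold between 2 groups is given for Ikbkb and none was tested. It entered only the test of the difference of the flight effects below, where its value has no exact size. Ikbkg, the scaffold, had Cy5 signals at background throughout, so that nothing can be said of the third subunit of the kinase.

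Most marker lists of cell types had a median below 0 in FLT-Surgery against G-Surgery, but Myh2 and Col2a1 were the only markers past the cut-off. Of 11 marker lists, 9 had a median below that of all genes, and the T cell (0.16) and endothelial (-0.06) lists did not. The summed Cy5 signal of 10 skeletal muscle markers was 468000 to 2116000 in G-Surgery, and 1764000, 141400 and 179300 in FLT-Surgery 1, 3 and 5. Of these markers 9 were tested and all 9 were below 0, with a median of -1.76, and 1, the myosin Myh2 (-5.48), passed the cut-off. The neutrophil markers summed to 51800 to 138600 in G-Surgery and to 108300, 13910 and 33530 in FLT-Surgery 1, 3 and 5. Of 5 chondrocyte markers 3 were tested, and Col2a1, the collagen of cartilage, differed by -5.92 (SE 1.53, adjusted p = 0.28 in limma), with sums of 1648 to 21890 in G-Surgery and 553 to 1110 in FLT-Surgery. The osteoclast markers summed to 19310 to 62200 in G-Surgery and to 57210, 10650 and 6523 in FLT-Surgery 1, 3 and 5. The erythroid markers summed to 1625 to 9699 in G-Surgery and to 16720, 2462 and 3291 in FLT-Surgery, and the adipocyte markers to 1705 to 9410 and to 7068, 510.3 and 140.2. FLT-Surgery 1 had the highest sum of its group for 8 of the 11 lists and also the highest Nfkbia, Chuk, Tab2 and Ube2n. Without it the differences of Chuk, Tab2 and Ube2n were -2.13, -4.42 and -2.73. Leaving out the highest array of the lower group had to widen them, and the 2 arrays that remained were at background for all 3 genes. The part of these cells in the results was not tested.

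**Figure D3:**
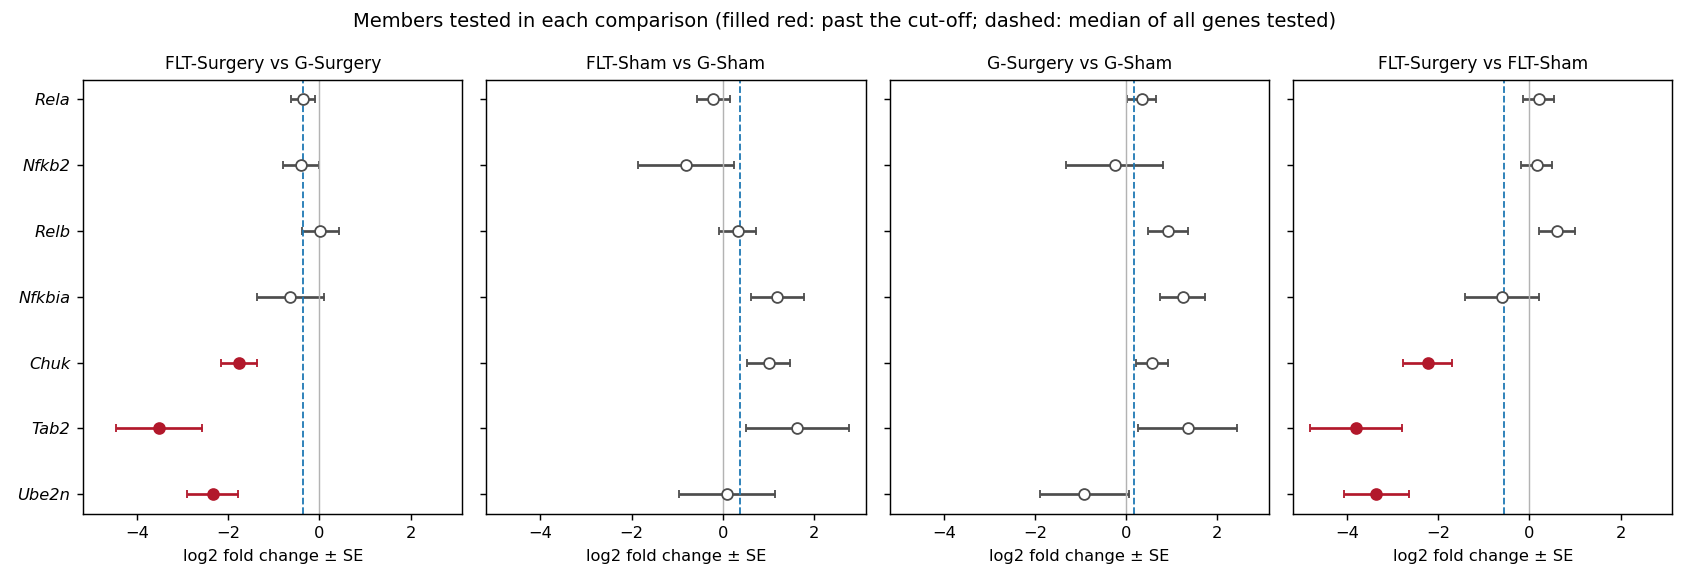
Log2 fold change ± SE (x axis) of the 7 members tested (y axis) in the 4 comparisons between groups. Filled red points are past the cut-off and the dashed line is the median of all genes tested. Chuk, Tab2 and Ube2n are filled in both comparisons that hold the FLT-Surgery mice and open in the other 2.

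In mice without a defect, no member passed the cut-off between FLT-Sham and G-Sham (limma), beside 1.97% of 10307 genes and 1.83% called higher, and none had an unadjusted p under 0.05. The arrays of every member tested overlapped between the groups, whereas those of 4.86% of all genes did not. The 7 members tested had a median of 0.33, beside 0.38 over all genes, of which 68.1% were above 0. Chuk differed by 1.01 (SE 0.47, adjusted p = 0.517 in limma) and Tab2 by 1.63 (SE 1.13), with an interval from -0.94 to 4.20. Ube2n differed by 0.10 (SE 1.05, 95% confidence interval -2.29 to 2.48), an interval that holds changes of over 4-fold both ways. Within slide 1 (1 against 1 array) and slide 2 (3 against 2), Chuk differed by 1.30 and 0.83, Nfkbia by 1.69 and 1.05, and Ube2n by 2.75 and -1.47. The sham comparison thus neither showed a change of these genes nor bounded it closely.

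Surgery on the ground also called no member (limma), beside 3.13% of 9061 genes and 2.68% called higher, and Nfkbia alone had an unadjusted p under 0.05. The members had a median of 0.56, with 5 above and 2 below 0, beside 0.17 over all genes, of which 62.8% were above 0. Relb differed by 0.92 (SE 0.43, adjusted p = 0.481 in limma) with the brighter probe and by 0.66 (SE 0.56) with the other, Chuk by 0.56 (SE 0.35) and Rela by 0.34 (SE 0.32). Ube2n (-0.92, SE 0.98) and Nfkb2 (-0.25, SE 1.07) went the other way. Their arrays overlapped between the groups.

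Surgery in flight, FLT-Surgery against FLT-Sham, called Chuk, Tab2 and Ube2n lower, 3 of 7 members beside 8.27% of 10101 genes and 7.98% called lower. Tab2 and Ube2n entered this test through FLT-Sham arrays alone, 3 of 4 being above background against 0 of 3 in FLT-Surgery, so the count is no support for a change of the members. Of the 7 members 4 were below 0 and 3 above, with a median of -0.60 beside -0.55 over all genes, of which 66.5% were below 0. This comparison shares its FLT-Surgery arrays with that against G-Surgery, so the same 3 low arrays enter both. Chuk differed by -2.23 (SE 0.54, adjusted p = 0.136 in limma), Tab2 by -3.80 (SE 1.01, adjusted p = 0.144) and Ube2n by -3.36 (SE 0.72, adjusted p = 0.133). The arrays of Tab2 overlapped, since FLT-Sham 8 lay below FLT-Surgery 1, and those of Chuk and Ube2n did not, as for 16.5% of all genes. Against the bound set by FLT-Surgery, Tab2 was at least 6.71-fold and Ube2n at least 4.80-fold higher in FLT-Sham, with 3 of its 4 arrays above background for either. FLT-Sham 8, not above background for either gene, enters these means, so neither bound is strict, and both rest on the deposited processing. Without FLT-Sham 8, the lowest array of the higher group for all 3 genes, the differences were bound to widen, and they were -2.56, -4.55 and -3.96. Chuk lost its call without FLT-Sham 6, FLT-Surgery 3 or FLT-Surgery 5 and Tab2 without FLT-Surgery 3 or 5 or with no filter on dim probes. Without FLT-Sham 4, 6 or 9, Tab2 and Ube2n fell under the filter on dim probes, so that the count was 1 without FLT-Sham 4 or 9 and 0 without FLT-Sham 6. Within slide 1 (2 against 1 array) and slide 2 (1 against 3), Chuk differed by -3.00 and -1.38, Tab2 by -5.61 and -1.70 and Ube2n by -4.64 and -2.28, and with slide as a block only Ube2n kept its call. Of the 11 marker lists 7 had a median below that of all genes. All 3 erythroid markers tested passed the cut-off as lower, with a median of -4.75, as did 3 of 4 adipocyte markers (median -4.88), 4 of 8 neutrophil markers (-3.75), 2 of 10 muscle markers (-2.48) and 1 of 6 osteoblast and osteocyte markers (-0.38). The macrophage, T cell and endothelial lists had medians of 0.51, 0.50 and 0.43. The part of these cells was not tested here either.

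The test of the difference itself, whether flight had another effect with a defect than without, called Chuk at -2.79 (SE 0.64, adjusted p = 0.167 in limma over all 15 arrays) and Tab2 at -5.15 (SE 1.61, adjusted p = 0.176). That makes 2 of 8 members tested, beside 6.83% of 11092 genes and 6.61% called lower. Ube2n, called in both comparisons above, was not called here (-2.44, SE 1.33, adjusted p = 0.311), and Rela and the brighter probe of Relb were at -0.14 (SE 0.44) and -0.31 (SE 0.59). The median over all genes was -0.72, with 70% below 0, and that over the 8 members was -2.14, with 7 below 0. Tab2, Ube2n and Ikbkb had 0 of 3 FLT-Surgery arrays above background, so that their values have no exact size. All entered the test through other groups. Ikbkb did so through FLT-Sham 4 and 6 and G-Surgery 1 alone, which favoured a value below 0. The same low FLT-Surgery arrays enter here as in the comparisons above. The count and the median are thus no support for a difference of the members. No gene reached an adjusted p of 0.05 in this test, although the unadjusted p was 0.05 or less for 4245 probes. FLT-Sham 8 weighed on this too, since without it, the lowest array of its group for all 3 genes, Chuk, Tab2 and Ikbkb were called, at -3.12, -5.91 and -3.41. With all arrays Ikbkb was at -2.89 (SE 1.06, adjusted p = 0.199 in limma) and not called. Its values are no measure of size, since it was above background on 0 of 4 G-Sham and 0 of 3 FLT-Surgery arrays. Chuk was called whichever array was left out, and Tab2 lost its call without FLT-Sham 4, 6 or 9, G-Surgery 5 or FLT-Surgery 3 or 5. Ikbkb was also called without G-Surgery 4, Ube2n without G-Sham 1 and Nfkbia without FLT-Surgery 1. Of 11 marker lists 9 had a median below that of all genes, and the T cell (0.69) and endothelial (-0.29) lists did not. Lower past the cut-off were 2 of 7 osteoblast and osteocyte, 2 of 8 neutrophil, 1 of 10 muscle and 1 of 6 macrophage markers. So were 1 of 3 chondrocyte, 1 of 3 erythroid and 1 of 4 adipocyte markers, but no osteoclast, B cell, T cell or endothelial marker. The part of these cells was not tested.

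The size of these differences depended on how the ratios were made. Over all genes in FLT-Surgery against G-Surgery, the median moved from -0.35 to 0.13 when a further loess was applied within each array, and to 0 when the median signals were corrected for background by normexp and then normalized by loess, a setting called normexp with loess below. The share of called genes that were higher in flight moved with it, from 19.5% to 92.8% with the further loess, 76.9% with normexp and loess, 66.6% with Cy5 alone and 37.5% with each array centred on its median. Relative to the median of all genes, Chuk was lower by -1.42 as deposited, -1.21 after the further loess and -0.08 after normexp with loess. Tab2 was at -3.17, -2.53 and -0.16, and Ube2n at -1.98, -1.39 and -0.15. Chuk was past the cut-off after the further loess (adjusted p = 0.129 in limma) where Tab2 (adjusted p = 0.154) and Ube2n (adjusted p = 0.173) were not, and none was after normexp with loess. They were lower in FLT-Surgery under every setting in which they could be tested. In the Sham comparison the share of called genes that were higher was 93.1% as deposited, 83.7% with Cy5 alone, 71.9% after the further loess and 38.9% after normexp with loess. It was 85.6%, 74.1%, 67.8% and 59.6% for surgery on the ground, where centring gave 75.7%, and 3.5% as deposited, 35.7% after the further loess and 24.1% after normexp with loess for surgery in flight.

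**Figure D4:**
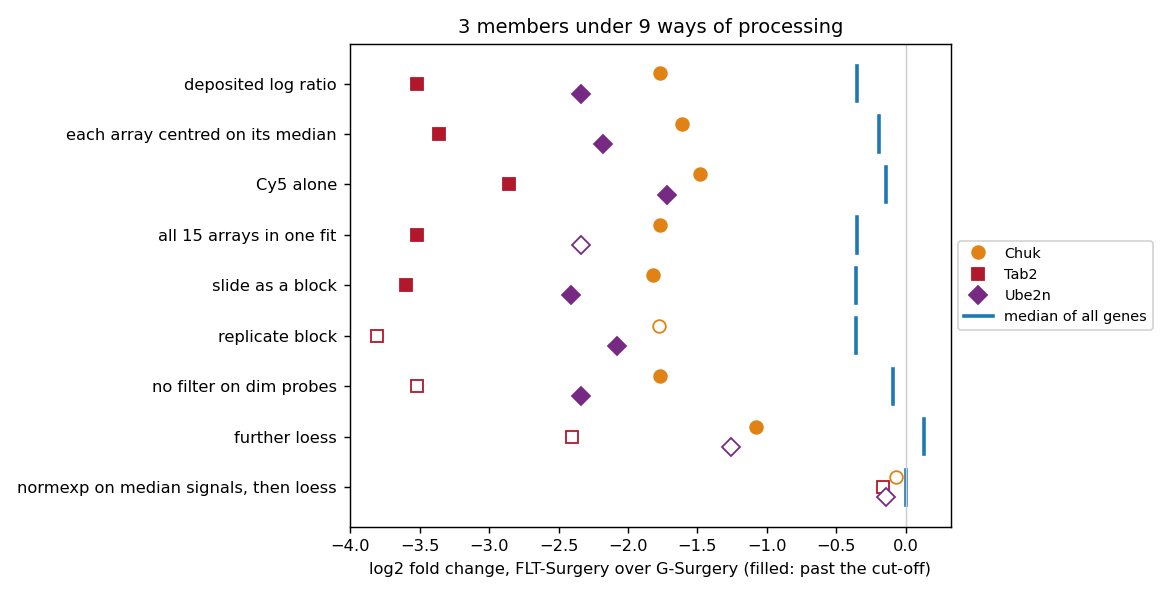
Log2 fold change between FLT-Surgery and G-Surgery (x axis) of Chuk, Tab2 and Ube2n under 9 ways of processing (y axis), with the median of all genes as a blue bar. Filled symbols are past the cut-off. The symbols stay left of 0 throughout and close in on it with normexp followed by loess.

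The rest of the pathway was taken as 5 lists, of which 36 genes were tested between FLT-Surgery and G-Surgery and 1, or 2.78%, passed the cut-off, beside 3.27% of all genes. Of 19 receptors and adaptors 10 were tested and none passed, with a median of -0.53. None of the 7 other kinases and ubiquitin factors tested of 11 passed (median -0.58), among them Map3k7, which encodes TAK1, the kinase that TAB2 serves, at -0.97 (SE 0.39, adjusted p = 0.292 in limma). None of the 4 other Rel and IκB genes tested of 6 passed (median -0.63). Of 8 genes that brake the pathway 4 were tested and 1 was lower, Tnip2, whose product binds the deubiquitinase A20 (-1.19, SE 0.34, adjusted p = 0.28 in limma, and -1.85 with its other probe). It lost its call without G-Surgery 3 or 5 or FLT-Surgery 3 or 5, and also with the further loess, with centring, with normexp and loess, and with the replicate number as a block. The last list held 22 genes that NFκB is known to switch on, though their RNA in a bulk sample does not measure its activity. Of these 11 were tested, 5 above and 6 below 0, with a median of -0.15 beside -0.35 over all genes, and none passed.

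In the Sham comparison 12, 8, 4, 5 and 11 genes of these lists were tested and none passed (limma), with medians of 0.58, 0.27, 0.32, 0.29 and -0.06 beside 0.38 over all genes. Surgery on the ground called Tnfrsf11a, which encodes RANK, the receptor that drives osteoclast formation (1.11, SE 0.32, adjusted p = 0.335 in limma), and Nfkbid, a nuclear IκB gene (1.37, SE 0.37, adjusted p = 0.319), as higher, 2 of 36 pathway genes tested (5.56%) beside 3.13% of all genes. Neither gene kept its call after the further loess, after normexp with loess, with centring or with slide as a block, nor without G-Sham 4, G-Surgery 1 or G-Surgery 4. The 11 targets tested had a median of 0.14 in that comparison, and none passed. In flight, surgery called Traf3, which holds the noncanonical branch in check (-3.53, SE 0.82, adjusted p = 0.136 in limma), and Rnf31, the catalytic part of the linear ubiquitin ligase (-1.29, SE 0.36, adjusted p = 0.146), as lower, and none of the 11 targets tested, with a median of 0.01. That makes 2 of 37 pathway genes tested, or 5.41%, under the 8.27% of all genes called in this comparison. The count of 2 became 0 without FLT-Surgery 3, 1 without FLT-Surgery 5 or FLT-Sham 4, 6 or 9, 3 without FLT-Surgery 1 and 8 without FLT-Sham 8. In the test of the difference of the flight effects, the genes past the cut-off were Tab1 (-1.61, SE 0.47), which encodes another partner of TAK1, Traf2 (-1.40, SE 0.44), Tnip2 (-1.81, SE 0.61) and the target Vcam1 (-3.54, SE 1.01), with adjusted p from 0.172 to 0.187 in limma. They were 4 of 42 pathway genes tested, or 9.52%, beside 6.83% of all genes. Which of these passed was known when they were named, and the count ran from 0 to 8 when 1 array was left out.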

How the data were processed

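RNA of 15 femurs was hybridised to 2-colour Agilent arrays. Per array, the authors deposited the scanner output of Feature Extraction, with the intensity in either channel, corrected for background and dye, and the log10 ratio of the channels. Every log2 value here was computed from that deposited ratio. The deposited series table held the same ratio to within 0.005 and served as an alternative. The deposited signals were already normalized by intensity: the ratio of processed to background-subtracted Cy5 signal in the dimmest spots was 0.353 to 0.610 of that in the brightest spots, over the 15 arrays. Of the Cy5 values of the members, 65 of 210 were not positive and significant against background, so that the software had set a stand-in value. The version of the software is given as 12.0 in the submitters' processing notes.

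Outlier spots were set to missing and spots of a probe averaged. Probes with Cy5 above background on 3 or more of the arrays compared were fitted with limma 3.58.1 in R 4.3.3, using only the arrays of both groups, or all 15 for the difference of the flight effects. P values were adjusted by Benjamini-Hochberg over all probes tested, and confidence intervals are 95%. A gene is given by its brightest probe. A fold against a group below background is given as a lower bound under the deposited processing, from Cy5 after quantile normalization of the mean intensity (limma's Aquantile). It sets the mean over all arrays of the brighter group against the lowest signal above background per array, or the probe's own if higher. Arrays of the brighter group not above background are included, and where there are any the bound is not strict. Every bound is open to dye bias because dyes were not swapped. Precision is limited by the number of arrays, 1 for each mouse. The members and the pathway and marker lists were chosen with earlier results of these data known. The rule for naming pathway genes outside the members took at most 4 per list, past the cut-off and with no overlap of arrays, and the 4 genes of the flight by surgery test fall outside it. Alternatives were a further loess, centring, normexp with an offset of 50 followed by loess, Cy5 alone against the 75th percentile, filters, slide and replicate blocks, all arrays in one fit and each array left out. The files held no mean signal, so normexp used the median signals. The fit was tested on simulated data.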

Additional observations from a re-analysis of the deposited data

Results flagged for a closer look

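In 3 of 42 groups of 4 arrays, 1 array of a member probe lay far from the others, where chance gives about 2.1, or 1 in 20 groups. Nfkbia was -2.42 on FLT-Sham 8, against -0.49 to -0.17 on the other 3 arrays of its group. The second Relb probe, A_51_P389751, was -5.25 on the same array and not above background, against -1.40 to -1.15. Tab2 was 1.57 on G-Surgery 5, against -1.35 to -1.05. FLT-Sham 8 was also the array of its group with the fewest members above background, 4 of 10 against 8, and its part in the group's results is given by the values without it. These values are log2 ratios of Cy5 to Cy3.

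The estimated effect of flight differed between mice with and without a defect by -5.15 (SE 1.61) for Tab2 and -2.79 (SE 0.64) for Chuk, on the log2 scale. In limma the adjusted p was 0.176 and 0.167, and no gene reached 0.05 in this test. For both genes the flight mice were lower with a defect (-3.52 and -1.77), with Tab2 above background on 0 of 3 and Chuk on 1 of 3 FLT-Surgery arrays, so that these sizes are not exact, and without a defect the difference was 1.63 and 1.01, not past the cut-off. The call was lost in 10 of 23 settings for Tab2 and in 1 of 23 for Chuk. Over these settings the values ran from -6.05 to -0.41 for Tab2 and from -3.14 to -0.19 for Chuk. The explanation was not tested.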

How the results depend on the processing

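For 19 named results, 330 values were computed under 26 settings, and 274 kept the direction and the side of the cut-off, 36 lost the call, 1 gained it and 19 changed sign. Centring, keeping outlier spots and the series table changed none of these 19, but centring moved the count of other pathway genes past the cut-off from 1 to 0 in FLT-Surgery against G-Surgery, from 2 to 0 for surgery on the ground, from 2 to 1 in flight and from 4 to 2 for the difference of the flight effects. The alternatives for the difference of the flight effects, the other pathway genes beyond the further loess and the bounds without an array were added after the data were seen. The cause of the changes below was not tested, except that the stricter filter tested fewer members by its construction. Dim Cy5 signals limit every value of Tab2, Ube2n and Ikbkb, and those of Chuk that include FLT-Surgery, where 1 of 3 arrays was above background.

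The 3 calls in FLT-Surgery against G-Surgery became 1 with the further loess, 0 with normexp (followed by loess), 2 with no filter on dim probes (Tab2 lost), 2 with all 15 arrays in one fit (Ube2n lost), 0 with a stricter filter (both channels above background on all arrays compared), and 1 to 3 without an array. The member median minus that of all genes ran from -1.11 to -0.04 without an array. Nfkb2 changed sign with the further loess (0.15) and normexp (0.06), and Relb without an array (-0.20 to 0.32).

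In FLT-Sham against G-Sham, Relb changed sign with the further loess (-0.20) and normexp (-0.31), and Ube2n with the further loess (-0.15), Cy5 alone (-0.07) and slide as a block (-0.23). Without an array Ube2n ran from -0.49 to 1.11, Rela from -0.40 to 0.02 and Nfkb2 from -1.40 to 0.38. The median minus that of all genes was -0.05, and 0.58 with no filter and 0.91 with the stricter one. The count without an array was 0 to 1, as it was for surgery on the ground.

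The 3 calls in FLT-Surgery against FLT-Sham became 0 with normexp, 0 with the stricter filter, 1 with slide as a block, 2 with no filter (Tab2 lost) and 0 to 3 without an array. With the further loess they became 4, Relb being added (1.40). The median difference was -0.97 with no filter and -0.68 to 0.52 without an array. The 2 calls for the difference of the flight effects became 1 with the further loess, no filter or slide, 0 with normexp or the stricter filter and 1 to 3 without an array. The median difference was -0.27 with normexp, -1.95 with no filter, -0.83 with the stricter filter and -1.91 to -0.87 without an array. G-Sham 4 was alone on its slide, so the slide block in effect left it out.

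The titles give replicate numbers, but nothing says that a number is shared by mice. Deviations of same-numbered arrays correlated at -0.363, -0.193 and 0.242 in the surgery groups and between -0.161 and 0.354 on the ground, so the numbers were not taken as pairs. With the replicate number as a block 1 member, Ube2n, kept its call in FLT-Surgery against G-Surgery, Relb was -0.07, and 0 members were called for surgery on the ground.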
